A study of Mus musculus with 15 samples.

Results

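The genes described here encode the proteins of the cytosolic ribosome. They were taken by gene symbol (names beginning Rpl or Rps with a digit, and Rplp0, Rplp1, Rplp2 and Rpsa), without symbols holding "-ps", the Rps6k kinases, Rps19bp1, Rpl7l1, Rps27l and Rps4l, and with at least 10 reads in at least 3 of the 15 libraries. This gave 89 genes of the 50554 in each table, 36 for the small subunit and 53 for the large subunit. Of these, 77 are core ribosomal protein genes (31 small subunit, 46 large subunit) and 12 are paralogs or retrotransposed copies, 4 of which RefSeq annotates as pseudogenes. Rpl10l, a paralog best known from testis, also had a matching name but had 1 read in all libraries together and was left out. Fau and Rack1 encode ribosomal proteins under other names and are given separately.

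A ribosome joins a small subunit, which decodes the mRNA, to a large subunit, which forms peptide bonds, and nearly every ribosomal protein is needed in equal number. Most of these mRNAs carry a 5′ terminal oligopyrimidine (TOP) tract at their start, through which mTORC1 and LARP1 adjust their translation and stability together. Loss of 1 copy of certain ribosomal protein genes causes Diamond-Blackfan anaemia in people, and free RPL5 and RPL11 bind MDM2, the ubiquitin ligase of p53. MYSM1 is a nuclear deubiquitinase that removes ubiquitin from histone H2A.

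The cells were bone marrow-derived dendritic cells (BMDCs), grown from mouse marrow with GM-CSF for 9 days (8 to 9 in the treatment protocol) and then kept for 18 h without stimulus (US) or with 10 ng/mL lipopolysaccharide (LPS), a bacterial outer membrane component sensed by TLR4. All mice carried a tamoxifen-inducible Cre (CreERT2) and 1 floxed Mysm1 allele, deleted by tamoxifen more than 12 weeks before marrow was taken. The second allele was wild type in the control (Δ/+) and catalytically inactive in Δ/DN mice, so all groups share the deleted allele and no group had 2 functional copies. Of the Δ/+ libraries 4 were unstimulated and 3 LPS-treated, and of the Δ/DN libraries 4 were unstimulated and 4 LPS-treated. The question was how loss of MYSM1 activity changes dendritic cells at rest and after a microbial stimulus. Genotypes are given as labelled on each sample. The series' design text pairs the mouse letters with the genotypes the other way round, and every genotype direction below would turn round if that text is right. The labels do not say whether replicates came from separate mice, so p-values measure the spread between these libraries.

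Libraries held 37256651 to 104041282 reads assigned to genes, so even the least counted members (Rps23rg1 with 830 reads, Rpl3l with 855 and Rpl39l with 1227 over all libraries) were detected. The dendritic cell markers fixed for the check (Itgax, H2-Ab1, Cd74 and 6 others) summed to 5596 to 7328 CPM (reads scaled to a common library size) in Δ/+ US and 5279 to 8408 in Δ/DN US, and the B cell and T and NK cell lists stayed under 3 CPM in every library. Mysm1 itself was at 46.3 to 54.1 CPM in Δ/+ US and 28.1 to 48.9 in Δ/DN US, and these ranges overlapped. With LPS it was at 41.3 to 44.6 CPM in Δ/+ and 30.8 to 39.97 in Δ/DN, without overlap. These levels check the genotype labels little, because the inactive allele can be transcribed too, and its share of the reads was not tested. The library Δ/DN US 3 stood apart: the 7SL RNA took 10.4% of its reads against 3.41% to 5.66% in the other US libraries, and its scaling factor was 1.04 against 1.15 to 1.33. Results that rest on that culture are given with and without it. Library names form 2 sets, numbered 2 and 3, and set 3 held 1 Δ/+ and 4 Δ/DN libraries. What a set stands for is not given in the sources used here. In bulk RNA, fewer cells of a type and less RNA per cell cannot be told apart.

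Short stretches at the start of members' genes are shown because many hold an ETS family site, a feature the choice of members did not use. Promoter sequences came from RefSeq (GRCm38.p6, 250 bases before to 50 bases from each annotated start) and were found for 65 of the 89 members and 57 of the 77 core members. The string CCGGAAG, the core bound by ETS factors such as GABPA, was searched on both strands and was present in 24 of the 57 core promoters (42.1%) against 9.93% of the 27025 genes in the table. AAGATGGC, a core of the YY1 site, was in 5 of 57 (8.77%) against 3.19%, and TATAAA, the TATA box, in 6 of 57 (10.5%) against 15.7%. The first string ends in the 3 bases with which the second begins, so a promoter can hold both in overlapping positions, and their counts are not separate. The windows below run from 40 bases before to 20 bases from the first listed start, 5′ to 3′ on the gene's strand, with CCGGAAG in capitals. The first 5 genes were called lower in Δ/DN than in Δ/+ cells both without and with LPS, and the last, Rpl6, was called in neither comparison. The string also lay, on either strand, in the windows of Rpl11, Rpl19, Rps21 and Rps3a1, likewise called in neither genotype comparison. It lay in that of Rps7 too, which was called lower without LPS only. Those windows are not printed, so the choice shown leans to called genes.
Rpl26 (chr11:68901526-68901585, plus strand): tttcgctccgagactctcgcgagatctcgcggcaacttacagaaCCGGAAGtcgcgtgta
Rpl31 (chr1:39367811-39367870, plus strand): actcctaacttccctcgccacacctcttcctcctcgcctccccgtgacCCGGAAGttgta
Rpl37 (chr15:5116573-5116632, plus strand): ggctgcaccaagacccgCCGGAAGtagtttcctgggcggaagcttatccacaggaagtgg
Rpl38 (chr11:114668540-114668599, plus strand): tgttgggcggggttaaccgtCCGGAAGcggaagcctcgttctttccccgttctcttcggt
Rps10 (chr17:27635225-27635284, minus strand): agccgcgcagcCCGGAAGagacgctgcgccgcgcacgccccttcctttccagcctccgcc
Rpl6 (chr5:121204461-121204520, plus strand): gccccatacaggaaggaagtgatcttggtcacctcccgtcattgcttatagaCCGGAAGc
Among core members with a promoter in the table, the string was present in 9 of the 16 that were called lower in a genotype comparison and in 15 of the 41 that were not, which is a description of the windows and says nothing of the factors that bind them.

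The 77 core members were all well expressed. Per kilobase of the deposited gene length and on the scaled CPM scale, Rpl41, which encodes the smallest ribosomal protein, Rpl10, which sits near the tRNA sites of the large subunit, and Rps23, at the decoding centre, had the highest levels, at 811, 641 and 562 scaled CPM per kilobase. The lowest, between 0.13 and 0.689, were Rpl3l, Rps23rg1 and Rpl39l. Rpl3l is a paralog known from striated muscle and Rpl39l one known from male germ cells. Rps23rg1 was classed with the copies, and its sequence was not compared with that of Rps23. With the length of the principal GENCODE transcript, Rpl41 and Rpl10 again led the core members. The spread over all 15 libraries was smallest for Rpl14, Rps12 and Rpl4 and largest for Rpl39l, Rpl3l and Rps23rg1.

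The order of the groups was shared by most members. After scaling by the trimmed mean of M-values (TMM), the mean level was highest in Δ/+ LPS for 70 of 77 core members and lowest in Δ/DN US for 60. Within Δ/DN US, replicate 4 was the lowest library for 60 of 77 core members and replicate 3 the highest for 63. As a summed share of reads, the order for LPS was the reverse. The 89 genes took 2.36% ± 0.0614 of all reads in Δ/+ US (SD, n = 4), 2.18% ± 0.154 in Δ/DN US (SD, n = 4), 1.72% ± 0.0357 in Δ/+ LPS (SD, n = 3) and 1.59% ± 0.0762 in Δ/DN LPS (SD, n = 4). Every LPS library was below every US library in this share, while in TMM-scaled levels LPS was above US for most members. The scaling factors were 1.04 to 1.33 in US and 0.73 to 0.94 in LPS libraries. The LPS values below are from TMM scaling, with those from library totals beside them.

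**Figure D1:**
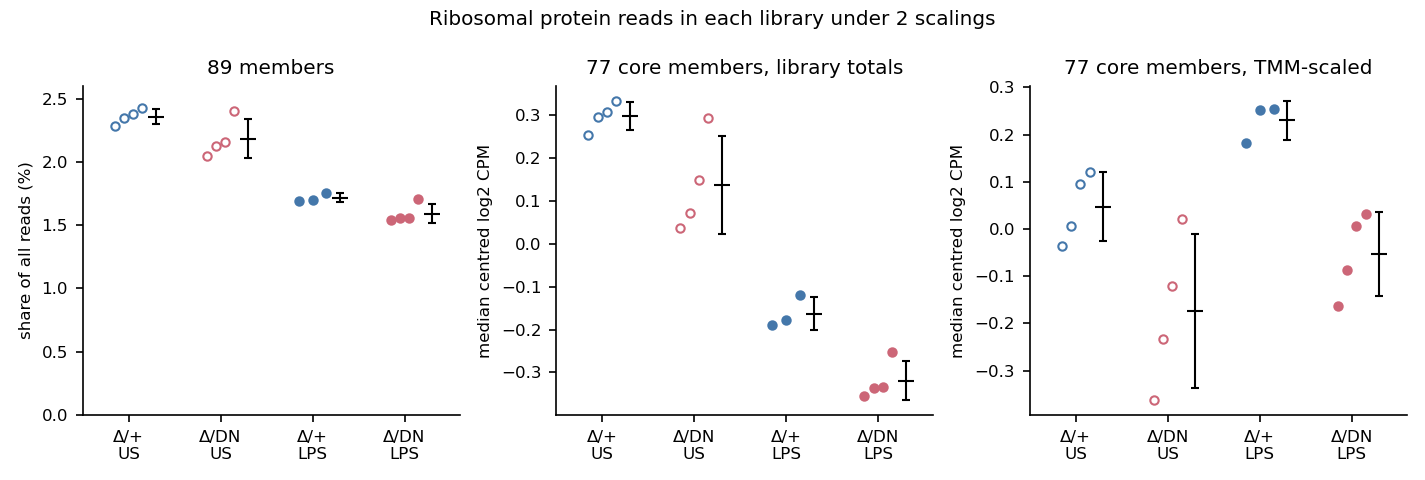
Share of all reads in the 89 genes (left, percent), and the median over 77 core members of the log2 CPM centred on each gene's mean over libraries, from library totals (middle) and after TMM scaling (right), for each library, with the mean and SD of its group beside the points. The LPS libraries lie below the US libraries in the left and middle panels and, within each genotype, mostly above them in the right panel; within each treatment the Δ/DN mean lies below the Δ/+ mean in all 3 panels.

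Without LPS, ribosomal protein mRNAs were lower in Δ/DN than in Δ/+ cells, by a small amount spread over most of the family. Of the 89 genes, 16 fell at an adjusted p under 0.05 (edgeR's quasi-likelihood test, Benjamini-Hochberg over 20865 genes), where 5.45% of all genes tested fell. None rose, where 5.01% of all genes did. At an unadjusted p under 0.05 by edgeR, none was higher and 41 were lower, where 2789 of all 20865 genes were higher and 2681 lower. The median log2 difference was -0.20 over the 89 genes and 0.01 over all genes, and 80 of the 89 had a negative value. By DESeq2, 24 fell and none rose, where 1766 and 1694 of all genes did. At an unadjusted p under 0.05 by DESeq2, 42 members were lower and 1 higher. In 22 genes all 4 Δ/DN libraries were below all 4 Δ/+ libraries, against 6.20% of all genes, and in 0 they were all above, against 6.28%. Among the 16 that fell were Rpl23, Rpl24, Rpl26, Rpl27, Rpl29, Rpl31, Rpl32, Rpl34, Rpl37 and Rpl38 in the large subunit and Rps7, Rps10, Rps15 and Rps15a in the small subunit.

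The count depends on single libraries. It was 45 without Δ/DN culture 3 in both treatments, including all 16, but 0 without Δ/+ US 4, the only Δ/+ library of set 3, 43 without Δ/DN US 3, 2 without Δ/DN US 2 or Δ/DN US 4, and 6 without Δ/+ US 2. Without the other libraries in turn it was 8 to 10. The calls over all genes moved as well. In the main fit 1138 of 20865 genes fell, against 2095 of 21606 without Δ/DN culture 3. The number was 120 of 20834 without Δ/+ US 4, 249 of 21613 without Δ/DN US 2 and 468 of 21544 without Δ/DN US 4. The median over the members stayed negative throughout, between -0.28 and -0.14.

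With LPS the genotype difference had the same direction. Of the 89 genes, 21 fell by edgeR, where 3.23% of all genes fell. None rose, where 5.37% of all genes did. At an unadjusted p under 0.05 by edgeR 52 were lower and none higher, where 2258 and 3028 of 20865 genes were. The median log2 difference was -0.30 against 0.01 over all genes. In 67 genes all 4 Δ/DN LPS libraries lay below all 3 Δ/+ LPS libraries, against 12.0% of all genes, and in 2 all lay above, against 12.6%. By DESeq2, 27 fell and none rose, where 1186 and 1831 of all genes did. At an unadjusted p under 0.05 by DESeq2, 51 members were lower and 1 higher. Of the 21, 12 had also fallen without LPS, among them Rpl23, Rpl24, Rpl26, Rpl31, Rpl32, Rpl34, Rpl37, Rpl38, Rps10, Rps15 and Rps15a. The other 9 were Rpl17, Rpl36, Rpl36a, Rpl39, Rps18 and Rps27 and the copies Rpl37rt, Rpl6l and Rps27rt. This count was 0 without Δ/+ LPS 2 or without Δ/DN LPS 2, 1 without Δ/+ LPS 1, and 9 without Δ/+ LPS 3 or without Δ/DN LPS 4; the median stayed between -0.35 and -0.27. Without Δ/DN culture 3 it was 35. Over all genes, 674 of 20865 fell in the main fit and 1246 of 21606 without Δ/DN culture 3. The number was 37 of 21619 without Δ/+ LPS 2 and 68 of 21616 without Δ/DN LPS 2. Scaled by library totals alone, 8 members fell with LPS and 12 without, where 339 and 539 of all 20865 genes fell. The medians were then -0.15 and -0.13, where the medians of all genes were 0.16 and 0.08.

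**Figure D2:**
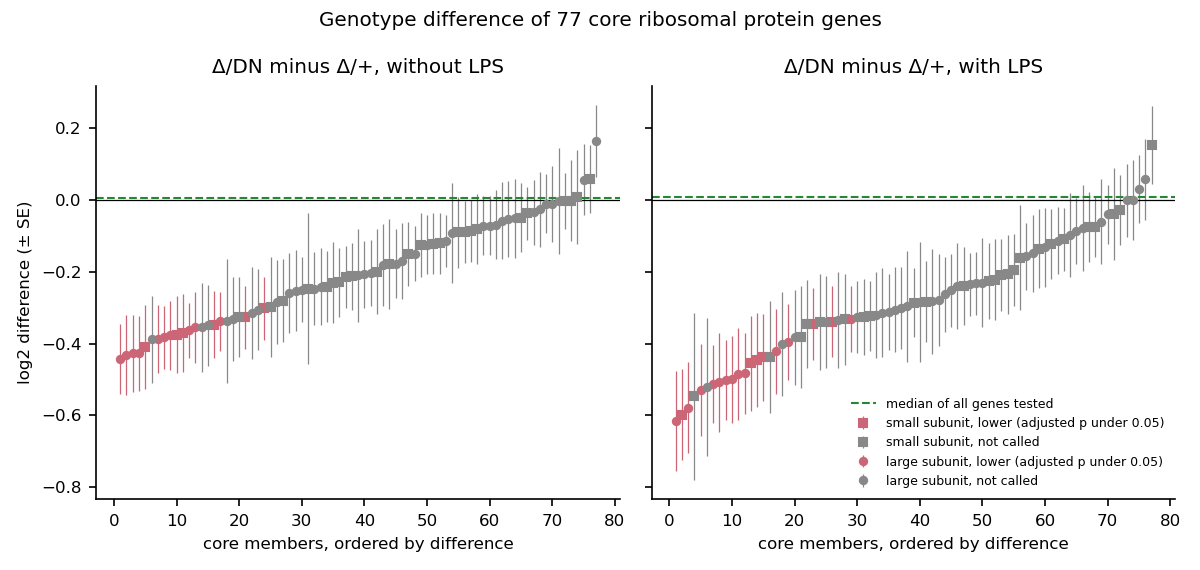
Log2 difference between Δ/DN and Δ/+ (± SE) for each of the 77 core members, ordered from the lowest to the highest, without LPS (left) and with LPS (right); squares are small subunit genes, circles large subunit genes, red marks an adjusted p under 0.05 and the dashed line is the median of all genes tested. In each panel 73 of 77 values are below 0, and both subunits are spread along the whole order.

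Both subunits took part. Without LPS, 6 of 31 small subunit and 10 of 46 large subunit core members fell, with medians of -0.20 and -0.23, and with LPS 6 of 31 and 12 of 46, with medians of -0.28 and -0.30. By edgeR, 0 of the 12 copies and paralogs fell without LPS (4 were lower at an unadjusted p under 0.05, and DESeq2 called 2) and 3 fell with it. Without Δ/DN culture 3 these counts were 4 and 6.

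Rpl24, whose protein helps to bridge the subunits on the large subunit side, had the largest difference among core members without LPS. It was at 175, 175, 178 and 186 CPM in Δ/+ US and at 131, 136, 149.7 and 108 in Δ/DN US. With LPS it was at 287, 298 and 291 in Δ/+ and at 216, 200.1, 221 and 185 in Δ/DN. Neither pair of genotypes overlapped, and the highest Δ/DN library without LPS was replicate 3. The log2 difference was -0.44 ± 0.10 without LPS (SE; edgeR adjusted p = 0.016) and -0.50 ± 0.11 with LPS (SE; edgeR adjusted p = 0.019). Without LPS this call was kept in 6 of 8 fits that each left out a library, and with LPS in 4 of 7.

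Rpl29, a large subunit protein that is not essential for life in mice, had the smallest p without LPS. It was at 132, 131, 143 and 146 CPM in Δ/+ US and at 104, 113, 111 and 98.4 in Δ/DN US, with no overlap. Its log2 difference was -0.36 ± 0.08 (SE; edgeR adjusted p = 0.014), and it was kept in 7 of 8 fits that left out a library. The call was kept in 10 of 12 other settings. It was lost with library set 2 only and with scaling by library totals. With LPS it was at 151, 154 and 166 in Δ/+ and 141, 134, 129 and 126 in Δ/DN, again without overlap, and the difference of -0.23 ± 0.09 did not pass the test (SE; edgeR adjusted p = 0.11).

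Rpl23, whose protein can bind MDM2, had the smallest p with LPS. It was at 323, 329.6 and 333 CPM in Δ/+ LPS and at 240.0, 219, 255 and 211 in Δ/DN LPS. All 4 Δ/DN libraries were lower, and the log2 difference was -0.51 ± 0.11 (SE; edgeR adjusted p = 0.016). Rpl5 and Rpl11, the other members named by rule as MDM2 binders, did not pass the test in either genotype comparison. Rpl5 differed by -0.17 without and -0.31 with LPS, and Rpl11 by -0.09 and -0.30, on the log2 scale.

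Rpl38, known in mice for a skeletal patterning phenotype when 1 copy is lost, fell in both conditions. It was at 89.7, 86.7, 92.6 and 83.8 CPM in Δ/+ US and at 68.7, 65.7, 71.9 and 49.2 in Δ/DN US. With LPS it was at 105, 109 and 106 against 75.3, 68.9, 73.8 and 54.3. Replicate 4 was the lowest Δ/DN library in both, and neither pair overlapped. The log2 difference was -0.43 ± 0.11 without LPS and -0.58 ± 0.13 with LPS (SE; edgeR adjusted p = 0.028 and 0.018).

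Rpl36a, an X-linked large subunit gene, had the largest fall of any core member with LPS. It was at 79.5, 85.2 and 82.3 CPM in Δ/+ LPS and at 58.5, 48.7, 59.5 and 45.9 in Δ/DN LPS. The groups did not overlap, and the log2 difference was -0.62 ± 0.14 (SE; edgeR adjusted p = 0.021), against -0.35 without LPS (edgeR adjusted p = 0.083). Its autosomal paralog Rpl36al, whose transcript matches 87.7% of the Rpl36a coding bases, differed by -0.01 without LPS and -0.09 with LPS on the log2 scale and was called in neither. Of the other X-linked members, Rpl39 fell with LPS, and Rps4x and Rpl10 were called in neither genotype comparison.

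In the small subunit, Rps10 was at 145, 134, 137 and 144 CPM in Δ/+ US and at 101, 105, 135 and 85.1 in Δ/DN US. Here Δ/DN replicate 3 reached the Δ/+ range, and the log2 difference of -0.41 ± 0.12 (SE; edgeR adjusted p = 0.04) was kept in 1 of 8 fits that left out a library. With LPS, Rps27 was at 187, 198 and 193 CPM in Δ/+ and at 137, 116, 156 and 125 in Δ/DN, without overlap. Its log2 difference was -0.60 ± 0.13 (SE; edgeR adjusted p = 0.016), the largest of the small subunit.

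Rps14, whose loss on 1 chromosome marks a human myelodysplastic syndrome, had the largest spread of any core member among the Δ/DN US libraries on the log2 scale (SD 0.54, n = 4). It was at 250.3, 239, 271 and 300.0 CPM in Δ/+ US and at 184, 203, 384 and 168 in Δ/DN US, where replicate 3 was above every Δ/+ library and the others below. With LPS it was at 295, 349 and 318 against 278, 203, 263 and 207, without overlap, and it was called in neither comparison (edgeR adjusted p = 0.51 and 0.16). Without Δ/DN culture 3 it fell in both, by 0.53 and 0.48 on the log2 scale (edgeR adjusted p = 0.013 and 0.035).

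Some members had smaller differences. The stalk genes Rplp0, Rplp1 and Rplp2, whose proteins recruit elongation factors, were called in no comparison by the main model. Rplp2 was lower with LPS by 0.24 ± 0.12 on the log2 scale (SE; edgeR adjusted p = 0.23), and its Δ/+ libraries at 162, 172 and 167 CPM lay above the Δ/DN libraries at 139, 150.3, 144 and 139. Rplp0 was at 619, 585, 677 and 671 CPM in Δ/+ US and at 546, 631, 747 and 563 in Δ/DN US, and at 675, 733 and 727 against 714, 680.4, 663 and 712 with LPS. The groups overlapped in both conditions, and the log2 differences were -0.06 ± 0.11 and -0.08 ± 0.12 (SE). Rps12 was at 95.2 to 116 CPM in Δ/+ US and at 97.2 to 103 in Δ/DN US. With LPS it was at 101.2 to 107 in Δ/+ and at 95.0 to 100.4 in Δ/DN, without overlap. Its log2 differences were -0.04 ± 0.07 without and -0.07 ± 0.08 with LPS (SE). Rpl14, Rpl4 and Rps19, the gene most often mutated in Diamond-Blackfan anaemia, were likewise called in neither genotype comparison, with log2 values between -0.11 and 0.00.

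**Figure D3:**
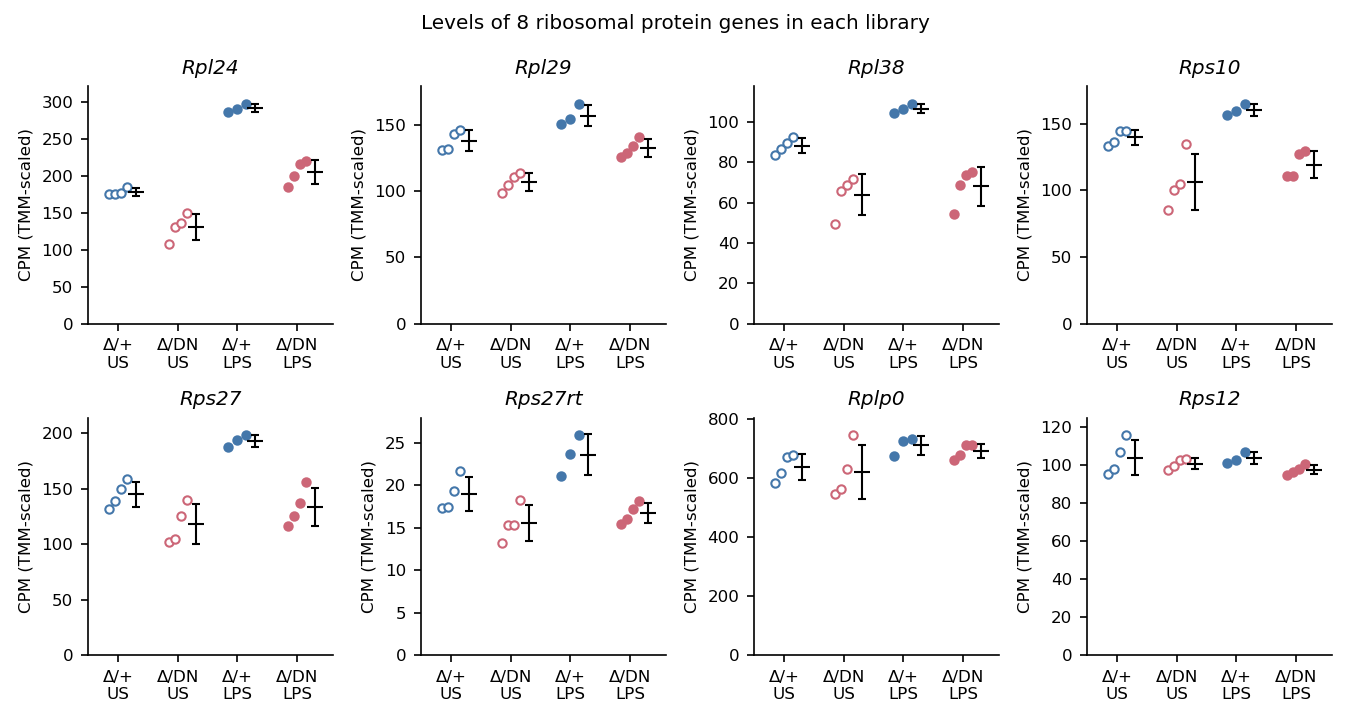
TMM-scaled CPM of 8 members in each library (open points US, filled points LPS; blue Δ/+, red Δ/DN) with the mean and SD of each group beside the points. Rpl24, Rpl29 and Rpl38 have no overlap between genotypes in either condition, while Rplp0 overlaps in both; on this scale Rpl24 is higher with LPS in both genotypes, and from library totals its log2 LPS difference is 0.05 in Δ/+ and 0.08 in Δ/DN, not past the test.

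More of the shorter than of the longer core members were called. The coding sequence of the principal GENCODE transcript ran from 75 bases (Rpl41) to 1257, with a median of 456. Of the 39 core members at or under the median, 11 fell without LPS and 14 with LPS, and of the 38 longer ones 5 and 4. The median log2 difference was -0.25 in the shorter and -0.19 in the longer group without LPS, and -0.33 and -0.27 with LPS. Across the 77 genes, Pearson's r between log2 coding length and the log2 difference was 0.16 without and 0.34 with LPS (Spearman's rho 0.21 and 0.32), and between log2 mean CPM and the log2 difference 0.30 and 0.34. These genes share the same libraries and are not independent points. The GC content of the transcript had r of 0.01 and 0.05. The part of transcript length or RNA fragmentation in the genotype difference was not tested.

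**Figure D4:**
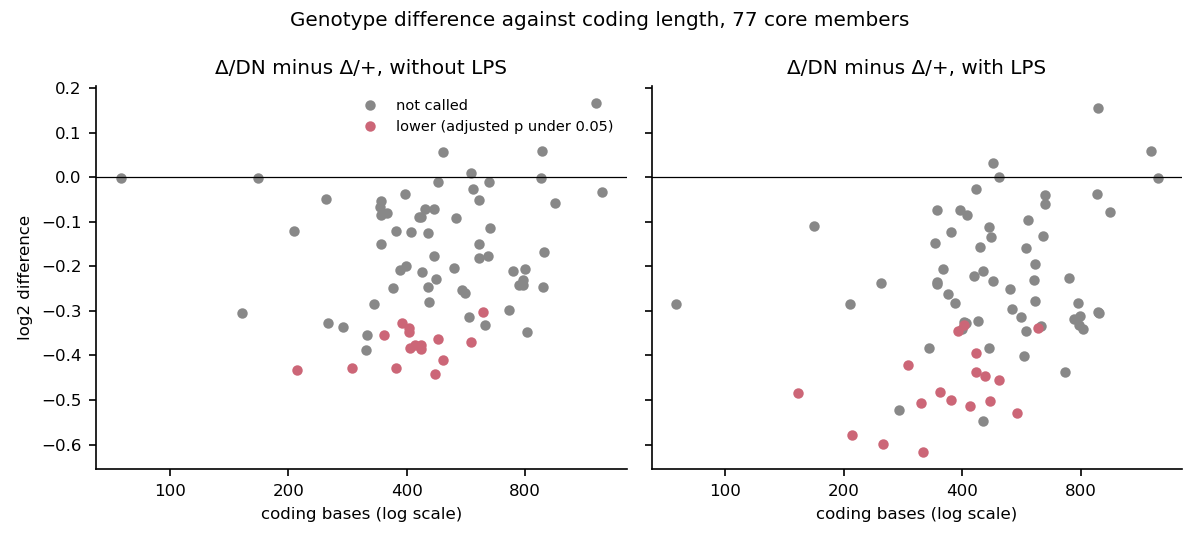
Log2 difference between Δ/DN and Δ/+ against coding length in bases (log scale) for the 77 core members, without LPS (left) and with LPS (right); red points fell at an adjusted p under 0.05. Called genes lie mostly to the left of about the median of 456 bases, while uncalled short genes, such as Rpl41 with 75 bases, are also present.

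The copies mostly had counts that cannot be separated with certainty from those of their parents. Rps27rt on chromosome 9 and Rps12l1 hold the whole coding sequence of Rps27 and Rps12 without a difference (0 edits over 252 and 396 bases), and Rpl37rt differs from Rpl37 by 1 edit in 291 bases. Rps3a2 and Rps3a3 match 99.5% and 98.9% of the Rps3a1 coding bases, and Rpl6l matches 98.7% of Rpl6. The paralogs are farther apart: Rpl39l matches 85.0% of Rpl39, Rpl3l 74.5% of Rpl3 and Rpl22l1 69.3% of Rpl22. How reads that match several places were counted is not given in the sources used here, so values of the near-identical copies are uncertain. Members summed with the pseudogenes named after them (318 in the tables) gave 14 falling members without LPS and 20 with LPS. Over the 20636 genes then tested, 1148 and 679 fell.

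The start regions of Rps27 and its copy are shown because the copy and its parent share this stretch. Both windows are 60 bases (GRCm38.p6, RefSeq), 5′ to 3′ on the gene's strand, with the longest shared run of 19 bases in capitals. The run begins next to the annotated start in each, and the bases before it differ between the genes.
Rps27 (chr3:90213629-90213688, minus strand): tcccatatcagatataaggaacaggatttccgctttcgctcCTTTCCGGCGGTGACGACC
Rps27rt (chr9:114982720-114982779, minus strand): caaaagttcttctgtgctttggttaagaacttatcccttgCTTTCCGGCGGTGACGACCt
Rps27rt was counted at 12.8% of the Rps27 level and moved with it. It was at 21.1, 25.9 and 23.7 CPM in Δ/+ LPS and at 17.2, 15.5, 18.2 and 16.1 in Δ/DN LPS, without overlap. The log2 difference was -0.55 ± 0.12 (SE; edgeR adjusted p = 0.02), beside -0.60 for Rps27. Since the 2 sequences are the same over the coding bases, it was not tested whether these reads came from the copy.

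Rps12l1, annotated as a pseudogene, was counted at 103% of the Rps12 level. It was at 76.3, 101, 105 and 110.0 CPM in Δ/DN US and at 117, 114, 114 and 131 in Δ/DN LPS, with no overlap. It rose with LPS in Δ/DN by 0.28 ± 0.10 on the log2 scale (SE; edgeR adjusted p = 0.033) and fell by 0.30 from library totals, while Rps12 differed by -0.05 ± 0.07 after TMM scaling and fell by 0.62 from library totals.

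Rpl39l and Rpl22l1 are paralogs with their own sequence. Rpl39l was at 0.807, 0.716, 0.25 and 0 CPM in Δ/+ US, at 0.17, 4.62, 0.026 and 0.0192 in Δ/DN US, at 0.873, 1.32 and 0.471 in Δ/+ LPS, and at 0.15, 6.89, 0.014 and 0.189 in Δ/DN LPS. The highest value in each treatment belonged to Δ/DN replicate 2, and the genotype differences were not called (edgeR adjusted p = 0.34 and 0.29). Rpl22l1 was at 17.0, 16.4, 21.6 and 15.7 CPM in Δ/+ US and 22.2, 22.1 and 31.4 in Δ/+ LPS, without overlap. It rose by 0.60 ± 0.21 after TMM scaling (SE; edgeR adjusted p = 0.033), with a log2 value of -0.058 from library totals, and differed by 0.23 ± 0.20 in Δ/DN (SE; edgeR adjusted p = 0.36), with -0.33 from library totals.

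Under TMM scaling, 18 of the 89 members rose with LPS in Δ/+ cells and none fell by edgeR, where 22.4% of all genes rose and 25.3% fell. From library totals 80 members fell and none rose, where 11211 of 20865 genes fell and 2317 rose. In Δ/DN cells, 13 members rose and none fell by edgeR under TMM, where 23.1% of all genes rose and 25.1% fell. From library totals 85 members fell and none rose, where 11185 of 20865 genes fell and 2361 rose. At an unadjusted p under 0.05 under TMM, 28 members were higher in Δ/+ and 20 in Δ/DN, and none was lower. Of all genes, 5155 and 5275 were higher and 5944 and 5913 lower. DESeq2 called 32 and 24 members higher and 0 lower, and of all genes 5159 and 5397 higher and 5281 and 5151 lower. The shares of members that rose by edgeR were near or below the background. The median log2 differences were 0.19 in Δ/+ and 0.11 in Δ/DN under TMM, beside -0.08 and -0.09 over all genes, and -0.47 in each genotype from library totals, beside -0.73 and -0.67 over all genes. Relative to the median of all genes, the median member was 0.26 higher in Δ/+ and 0.20 higher in Δ/DN with LPS on both scales. Under TMM, all 3 Δ/+ LPS libraries were above all 4 Δ/+ US libraries in 51 members, against 24.3% of all genes, and in Δ/DN this held for 11 members, against 20.1%; this overlap was counted on the TMM scale only. The Δ/+ count was 8 without Δ/+ LPS 3, 10 without Δ/+ US 2 and 12 without Δ/+ US 1. The Δ/DN count was 34 without Δ/DN US 3 and 28 without the whole of that culture, and without any other Δ/DN library in turn it was 6 to 14, with 2 members falling without Δ/DN US 4.

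The genes that rose under TMM in both genotypes numbered 9, among them Rpl19, Rpl23, Rpl23a, Rpl24, Rpl27, Rpl35a and Rps20. Rpl24 led in both, with log2 differences of 0.71 ± 0.11 in Δ/+ (SE; edgeR adjusted p = 5.5e-05) and 0.65 ± 0.10 in Δ/DN (SE; edgeR adjusted p = 5.8e-05), and 0.05 and 0.08 from library totals. No US library reached any LPS library of its genotype in the levels given above. Rps20, a small subunit gene whose human form is also linked to hereditary colon cancer, was at 166, 158, 170.3 and 152 CPM in Δ/+ US and 223, 224 and 238 in Δ/+ LPS. In Δ/DN it was at 146, 159.9, 172 and 128 without and 204, 190.1, 209 and 173 with LPS. Neither pair overlapped, and the log2 differences were 0.49 ± 0.10 and 0.36 ± 0.10 under TMM (SE; edgeR adjusted p = 0.0013 and 0.0059), and -0.17 and -0.21 from library totals.

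Rps27 rose in Δ/+ cells by 0.45 ± 0.12 under TMM (SE; edgeR adjusted p = 0.006; -0.21 from library totals) and differed by 0.18 ± 0.11 in Δ/DN (SE; edgeR adjusted p = 0.2), where it fell by 0.40 from library totals.

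No member's LPS difference was called as unequal between the genotypes. By edgeR's test of the difference of LPS differences, 0 of 89 passed the adjusted threshold, 0 had an unadjusted p under 0.05 by edgeR or by DESeq2, and 0.00479% of all genes were called lower. The lowest p belonged to Rps27, with a difference of -0.27 ± 0.16 on the log2 scale (SE; edgeR adjusted p = 0.68). The median SE over the 89 genes was 0.15, so differences of that size could be missed. DESeq2 called 0 members, where 32 of 20865 genes were lower and 86 higher. With the culture as a block, 0 members were called and 1 had an unadjusted p under 0.05 by edgeR. In that fit 44 of 20865 genes were lower and 112 higher. The 2 genotype comparisons share no libraries, but 7 pairs of a US and an LPS library carry a common culture code. Both comparisons also came from 1 model with a common library set term, so they are not independent. Each also shares libraries with the LPS comparisons, so these values are given side by side only.

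The 21 Diamond-Blackfan anaemia genes on the list (among them Rps19, Rps24, Rpl5 and Rpl11) are all core members. Without LPS 8 of 21 fell and 8 of the 56 others did, with medians of -0.26 and -0.21, and with LPS 6 of 21 and 12 of 56, with medians of -0.33 and -0.25. Over all genes tested, 5.45% fell without LPS and 3.23% with LPS. Whether these genes differ from the other core members was not tested. Of the ribosomal protein genes with other names, Rack1 differed by -0.25 ± 0.11 without and -0.31 ± 0.12 with LPS on the log2 scale (SE; edgeR adjusted p = 0.15 and 0.11). Fau differed by -0.15 ± 0.16 and -0.42 ± 0.18 (SE; edgeR adjusted p = 0.6 and 0.16), and neither gene was called.

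Few of the other listed mRNAs with a TOP tract were called. Of 24 such genes for elongation and initiation factors, snoRNA hosts and others, 2 fell without LPS, the chaperonin gene Cct4 by 0.25 and the snoRNA host Snhg1 by 0.46 on the log2 scale, and 0 were called with LPS by edgeR (5 lower and 1 higher at an unadjusted p under 0.05). DESeq2 called 6 without and 2 with LPS, all lower, and edgeR called 4 and 1 without Δ/DN culture 3 and 0 and 1 without Δ/DN culture 4. In the main edgeR fit, 5.45% of all genes tested fell without LPS and 3.23% with LPS. The median over the 24 was -0.16 without and -0.09 with LPS. Tpt1, an abundant TOP mRNA, differed by -0.32 ± 0.11 and -0.40 ± 0.12 (SE; edgeR adjusted p = 0.074 and 0.056). The difference between this list and the ribosomal protein genes was not tested.

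Most of the listed genes for chaperones and importers of ribosomal proteins, some of them general import receptors, fell without LPS. There, 7 of 11 fell and none rose by edgeR (8 lower and 0 higher at an unadjusted p under 0.05 and by DESeq2). Of all genes tested, 5.45% fell. The median log2 difference over the 11 was -0.36. Without Δ/DN culture 3 the count was 8, and without culture 4 it was 5. Grwd1, a histone and RPL3 chaperone, fell by 0.65 ± 0.09 on the log2 scale (SE; edgeR adjusted p = 0.003), Heatr3, needed for uL18 (RPL5) import, by 0.61 ± 0.12, Tsr2, the RPS26 chaperone, by 0.50 ± 0.13, and Ltv1, a small subunit maturation factor, by 0.47 ± 0.11. The import receptor genes Ipo5 and Ipo7 and the zinc finger gene Zpr1 fell by 0.45, 0.36 and 0.30. With LPS only Grwd1 of the 11 fell, by 0.42 ± 0.11 (SE; edgeR adjusted p = 0.03), and the difference between the LPS effects was called for 0 of the 11 by edgeR or DESeq2, with 3 higher at an unadjusted p under 0.05 by each.

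Of 18 genes of mTORC1 and TOP mRNA control, 3 fell without LPS: Eif4g1 and Eif4e, which build the cap-binding complex, by 0.40 and 0.32, and the S6 kinase gene Rps6kb1 by 0.30. The translation repressor gene Pdcd4 rose by 0.76 without and 1.15 with LPS, and Sesn2, an inhibitor of mTORC1, by 0.57 and 0.79; Akt1s1, another inhibitor, rose by 0.66 with LPS alone passing the test. Mtor, Rptor and Larp1 were called in neither. Over all genes tested, 5.45% fell and 5.01% rose without LPS, and 3.23% fell and 5.37% rose with LPS. Among 11 transcription factors linked to these promoters, Gabpa, a factor that binds CCGGAAG, fell with LPS by 0.39 ± 0.09 (SE; edgeR adjusted p = 0.026) and differed by -0.21 without it, and Myc, Yy1 and Sp1 were called in neither.

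The ribosome rescue list held 3 genes of 14 that fell without LPS, the recycling factor Abce1 by 0.46, Usp10 by 0.42 and its partner G3bp1 by 0.35, and 0 fell with LPS by edgeR, DESeq2 or at an unadjusted p under 0.05. Without Δ/DN culture 3 the counts were 5 and 1. In the p53 list, 1 of 10 rose (Phlda3, by 0.50) and 1 fell (Aen, by 0.59) without LPS. With LPS 5 rose, Trp53, Bbc3, Phlda3, Ccng1 and Zmat3, by 0.34 to 0.91, and Mdm2 fell by 0.53. Over all genes tested, 5.45% fell and 5.01% rose without LPS, and 3.23% fell and 5.37% rose with LPS.

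Proliferation markers moved with genotype in the opposite direction to the ribosomal protein genes. Of 8 markers, 7 rose without LPS, and their summed level was 367 to 540 CPM in Δ/+ US and 567 to 975 in Δ/DN US. With LPS 4 rose and Pcna fell, and the sums were 406 to 479 and 533 to 852. The neutrophil list summed to 44.4 to 106 CPM in Δ/+ US and 74.3 to 810 in Δ/DN US, and 0 of its 7 genes were called by edgeR or DESeq2, with 1 higher at an unadjusted p under 0.05 without LPS. With LPS it summed to 44.0 to 94.6 and 74.4 to 945. The macrophage list summed to 1192 to 1412 and 1115 to 1488. The progenitor list summed to 19.8 to 24.7 and 19.2 to 41.6, and 2 of its 4 genes, Cd34 and Myb, rose without LPS. With LPS the progenitor list summed to 21.9 to 26.3 in Δ/+ and 28.2 to 49.5 in Δ/DN, without overlap, and Cd34 rose. None of the genes on these 4 lists was at 0 in all libraries of a group. The summed level of the stromal and endothelial list was lower in Δ/DN without overlap. It was 22.7 to 29.7 against 9.99 to 15.9 CPM without LPS and 18.9 to 30.8 against 11.7 to 14.2 with LPS. The sum did not stand for every gene, since the median log2 difference over the list was -0.01 without and 0.25 with LPS. Of its 6 genes, Pecam1 and Lepr fell and Col1a2 rose without LPS, and Lepr fell with LPS. The mast cell and basophil list summed to 0.966 to 2.50 and 1.17 to 8.98 without LPS and to 0.845 to 2.25 and 2.11 to 12.8 with LPS, where Gata2 rose. The erythroid list stayed under 3 CPM in every library, with Klf1 at 0 in Δ/+ US, and 2 of its 3 tested genes, Hbb-bt and Hbb-bs, rose without LPS. The part of cell composition in the genotype difference of the ribosomal protein genes was not tested.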

How the data were processed

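Bulk RNA-seq of 15 BMDC libraries in 4 groups was used. The authors deposited raw read counts per gene with each gene's length in bases. The submitters' processing notes name the build mm39 (GRCm39) and the tools HISAT2 2.2.1, featureCounts, Trimmomatic 0.33, bedtools, FastQC and edgeR; their roles and the strand setting are not given in the sources used here. From the deposited counts (37256651 to 104041282 per library), genes passing filterByExpr with a minimum count of 10 were fitted in 1 model. It had 4 groups and a library set term, and used TMM factors and edgeR's quasi-likelihood test (R 4.3.3, edgeR 4.0.16, limma 3.58.1). The same steps were run on simulated data, with changed genes drawn from all genes tested. A true genotype difference of 0.5 in log2 was called in 5.10% of these without and 4.08% with LPS. A difference of 1 was called in 50.5% and 47.4%, so a gene not called can still differ. Adjusted p under 0.05 was called over all 20865 genes tested. Levels are CPM scaled by TMM factors. All 89 members passed this filter. The main design followed the labels, since no source gives the authors' model.

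Alternatives were DESeq2 1.42.0, its size factors, protein-coding or member-free scaling, no filter, no set term, summed pseudogenes, library subsets and replicate blocks; library totals were added after seeing the data. Members and lists were chosen with earlier results of these data known, and motifs with the sequences seen. Named genes were the 6 small and 8 large subunit members with the smallest p in each comparison, the stalk genes, paralogs, MDM2 binders and a few others, and the 4 smallest p of each list. The genes printed library by library, and other listed genes, were picked after their values were seen. Sequences came from RefSeq (GRCm38.p6) and transcript lengths from GENCODE M21 (GRCm38), a build other than that of the counts, matched by symbol. Reads are not independent molecules, so counting precision is only part of the error. A few genes are counted among the members or lists but are not reported here by name. No proteins or GRCm39 sequence were used.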

Additional observations from a re-analysis of the deposited data

Results flagged for a closer look

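In each group of 4 libraries, the gap of the highest or lowest library to its nearest neighbour was compared with the group's range. Of 57 groups tested, 4 had a library standing apart, and chance flags about 1 in 20. Rps14 was at 384 CPM in Δ/DN US 3, with the next library at 203. Rpl39l was at 4.62 CPM in Δ/DN US 2 against 0.17 in the next library, and at 6.89 CPM in Δ/DN LPS 2 against 0.189. The 89 genes took 1.71% of reads in Δ/DN LPS 4, with the next library at 1.56%.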

How the results depend on the processing

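In the genotype comparisons the median over the 89 genes stayed below 0 under each alternative run, while the counts of calls changed. The calls over all genes changed too. Without LPS 1138 genes fell, against 120 to 1920 when single libraries were left out. With LPS 674 fell, against 37 to 849. Members falling without LPS numbered 16, against 45 without Δ/DN culture 3 and 0 to 43 when single libraries were left out. With LPS they numbered 21, against 35 without Δ/DN culture 3, 8 from library totals and 0 to 25 when single libraries were left out. Members rising with LPS in Δ/+ numbered 18, against 32 by DESeq2, 37 with library set 2 only, 33 without Δ/DN culture 4, and 8 to 19 when single libraries were left out. In Δ/DN they numbered 13, against 20 with DESeq2's size factors, 24 by DESeq2, 28 without Δ/DN culture 3, and 6 to 34 when single libraries were left out. Members falling with LPS in Δ/DN numbered 0, against 3 with set 2 only, 2 without culture 4, and 0 to 2 when single libraries were left out. The cause of these changes was not tested. Every core member was detected in every library, and what depth or the number of libraries adds to the calls was not tested.

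Cultures shared by a US and an LPS library are named in the labels by a common code, which does not say that both came from 1 mouse. Of 7 such pairs, 6 had correlated deviations from their group means (r over 0.1), and 13 of 14 libraries correlated best with their own culture, which is a hint from the data and not from the design. With the culture as a replicate block, 31 members rose with LPS in Δ/+, Rplp2 among them (log2 0.26, edgeR adjusted p = 0.0498), and in Δ/DN 16 rose and 1 fell. Over all 20865 genes, 4923 rose and 5611 fell in Δ/+, and 5207 rose and 5766 fell in Δ/DN. With the replicate number as a block in the genotype comparisons, 32 members fell without LPS and 30 with LPS. The calls over all 21746 genes grew as well. In that fit 1894 fell and 2062 rose without LPS, and 1543 fell and 2192 rose with LPS.

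Scaling by library totals, an alternative chosen after seeing the data, turned the LPS comparisons round. In Δ/+ 80 members fell and 0 rose, and in Δ/DN 85 fell and 0 rose. Of all 20865 genes, 11211 fell and 2317 rose in Δ/+, and 11185 fell and 2361 rose in Δ/DN. This scaling moved the median of all genes from -0.08 to -0.73 in Δ/+ and from -0.09 to -0.67 in Δ/DN. On the log2 scale these were shifts of -0.65 and -0.58, and members kept their distance to that median. Among the members named by rule and reported, the log2 LPS differences that changed sign and were called on either scale became, in Δ/+, Rpl10 -0.43, Rpl11 -0.56, Rpl19 -0.31, Rpl22 -0.62, Rpl22l1 -0.058, Rpl23 -0.28, Rpl23a -0.38, Rpl27 -0.34, Rpl34 -0.31, Rpl35a -0.24, Rpl36al -0.65, Rpl37rt -0.57, Rpl39 -0.31, Rpl4 -0.58, Rpl41 -0.44, Rpl5 -0.52, Rpl6l -0.46, Rplp0 -0.48, Rplp1 -0.57, Rplp2 -0.38, Rps12l1 -0.44, Rps19 -0.52, Rps20 -0.17, Rps21 -0.30, Rps23 -0.42, Rps24 -0.26, Rps27 -0.21, Rps27rt -0.31, Rps29 -0.41, Rps3a2 -0.57, Rps4x -0.51. In Δ/DN they became Rpl10 -0.31, Rpl14 -0.56, Rpl19 -0.30, Rpl23 -0.33, Rpl23a -0.34, Rpl27 -0.21, Rpl29 -0.27, Rpl35a -0.25, Rpl4 -0.47, Rpl6l -0.52, Rplp0 -0.41, Rplp2 -0.48, Rps12l1 -0.30, Rps14 -0.52, Rps19 -0.38, Rps20 -0.21, Rps23 -0.47, Rps25 -0.37, Rps27rt -0.47, Rps4x -0.47.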

Other observations

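Pseudogenes named after members are outside the 89 genes but also took up reads. Of 318 in the tables, 299 had at least 1 read. Together they took 0.617% to 0.814% of the reads in US libraries and 0.457% to 0.539% in LPS libraries, and no test was made of them.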
